A study of Mus musculus with 12 samples.

Results

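In all, 10 genes of the SOX family were followed through primary mouse cortical endothelial cells (ECs): the 3 SoxF genes Sox7, Sox17 and Sox18, and 7 genes best known from neural and glial cells, Sox2, Sox4, Sox5, Sox6, Sox9, Sox10 and Sox11. They were chosen by gene symbol, and all 10 were found among the 21611 genes of the mRNA-seq table. The 12 libraries came from C57BL/6J wild-type mice and cells cultured on collagen to the second passage. There were 3 libraries of E13.5 ECs, 3 of untreated adult ECs (adult control), 2 of adult ECs given Wnt3a, a ligand that activates Wnt/β-catenin signaling, and 4 of adult ECs given MS-275, an inhibitor of class I histone deacetylases. Wnt3a is labelled as 200 nM, although the methods state the dose per volume in another unit, MS-275 was given at 10 µM, and both lasted 48 h according to the methods. The methods state male adults of 2 to 3 months and ECs of 1 litter pooled as a replicate. Elsewhere the study gives an older age for the adults.

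SOX proteins bind DNA through a high mobility group domain and act with partner factors on lineage genes. SoxF factors act in blood vessels, where they take part in arterial fate, lymphatic specification and vessel integrity, and Sox17 is known to lie downstream of Wnt/β-catenin signaling in embryonic arteries. Sox2 and its SoxB1 relatives hold neural progenitors, the SoxC factors Sox4 and Sox11 act in newborn neurons, and the SoxE factors Sox9 and Sox10 specify glia. The SoxD factors Sox5 and Sox6 are partners of Sox9 in cartilage.

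Values are normalized counts, that is reads on a gene divided by 1 size factor per library, and the libraries held 20804279 to 33149580 reads on genes. The 10 endothelial markers summed to 239254 to 321625 normalized counts in adult controls and to 883 to 1391 in the libraries labelled E13.5 ECs, where only 1 of the 10 reached a mean of 100. In those E13.5 libraries 8 neural progenitor markers summed to 29668 to 38377, against 2124 to 5318 in adult controls, and 7 mural cell markers to 29960 to 49387, against 85.0 to 99.6. Acta2 (mean 24395) and Tagln (11684) made up most of that E13.5 mural sum. Pdgfrb (469), Rgs5 (312), Myh11 (90.1) and Abcc9 (1.21) were far lower there, and Kcnj8 had no read. Most of the progenitor sum in adult controls was Nes (1825 to 4834), with no read of Fabp7, Hes5, Slc1a3 and Emx2. The 6 astrocyte markers summed to 2604 to 3330 (4.07 to 85.8 in adult controls) and the 6 oligodendrocyte lineage markers to 4971 to 5454 (21.3 to 36.5). The label of the E13.5 libraries as ECs therefore goes against the defining markers, and the group is called here by its label only. The libraries had further features that touch the results. Deviations from the group means split the adult libraries into a set A (control 1 and 2, Wnt3a 1, MS-275 1 and 3) and a set B (control 3, Wnt3a 2, MS-275 2 and 4), a split seen in the data with no label behind it. Wnt3a 2 lay about as close to control 3 (chi-square per gene 8.41, Pearson r of log2 values 0.990) as control 1 did to control 2 (9.73 and 0.993). Which pair was closer depended on the measure. E13.5 libraries 2 and 3 were closer to each other (chi-square per gene 4.92) than to library 1 (80.0 and 81.0), so the spread may be partly technical.

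Sox17 and Sox18 were high in the untreated adult ECs and close to 0 in the E13.5 libraries, and Sox7 differed less. Sox17 (mm10, chromosome 1, 4490931 to 4497354, minus strand), which drives arterial fate, had 2471, 2782 and 2343 normalized counts in the adult controls. It had 1.59, 1.73 and 1.91 in the E13.5 libraries, which are 6 reads in all, 500 and 2841 after Wnt3a, and 51.2, 101, 51.9 and 126 after MS-275. The order of the group means was therefore adult control, Wnt3a, MS-275 and E13.5. Only the adult control and Wnt3a ranges overlapped, and the 2 Wnt3a libraries differed more from each other than the adult controls did. The transcript Gm37587 overlaps Sox17 exons on the other strand, and the sources used here do not state whether reads were counted by strand.

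Sox18 (chromosome 2, 181669836 to 181671640, minus strand), which induces the lymphatic regulator Prox1 in the embryo, followed the same order. It had 2039, 1977 and 2563 normalized counts in the adult controls and 4.77, 13.9 and 3.82 in the E13.5 libraries. It had 131 and 2031 after Wnt3a, and 41.8, 13.1, 48.7 and 10.1 after MS-275. The E13.5 and MS-275 ranges met, since the highest E13.5 value lay above the lower pair of MS-275 values, and that lower pair was MS-275 2 and 4.

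Sox7 (chromosome 14, 63943673 to 63950732, plus strand), the remaining SoxF gene, which acts with the other SoxF factors in vessel formation, varied far less. Its values were 1302, 1222 and 984 in the adult controls and 318, 362 and 296 in the E13.5 libraries. They were 1859 and 898 after Wnt3a and 587, 389, 454 and 412 after MS-275. No MS-275 library reached any adult control, and all 4 lay above all 3 E13.5 libraries, whereas the Wnt3a pair lay on both sides of the adult controls.

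**Figure D1:**
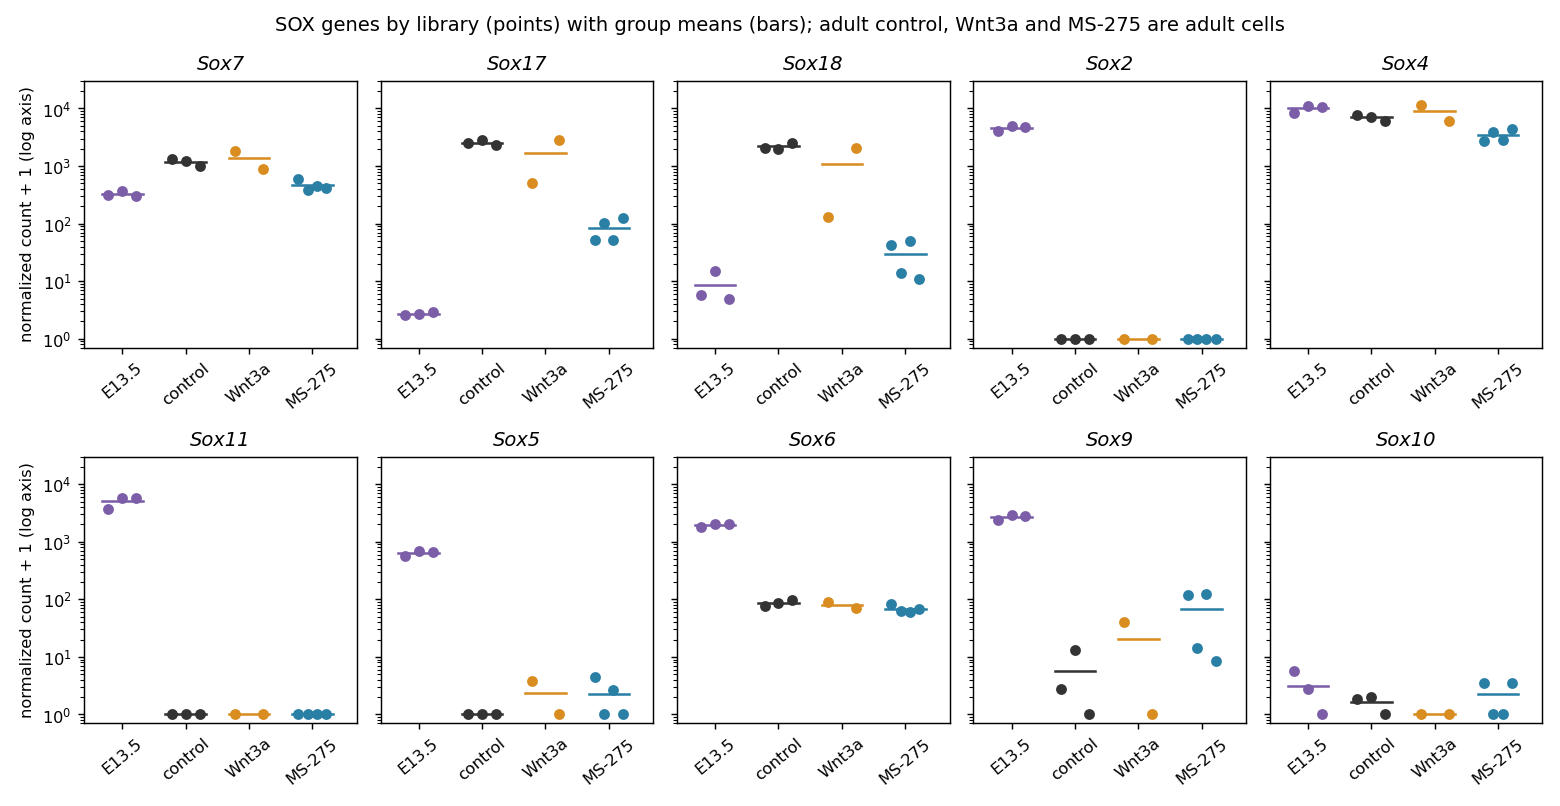
Normalized counts plus 1 (log axis) of the 10 SOX genes in each library (points) with the group means (bars), for E13.5, adult control, Wnt3a and MS-275. Sox17 and Sox18 are highest in adult controls, at 2532 and 2193 on average, and Sox2 and Sox11 have no read in any adult library.

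The make-up of the SoxF transcripts changed with the group. Per kilobase of exon, so that genes can be compared, Sox18 made up 56.1% to 66.7% of the summed SoxF level in adult controls, Sox17 20.7% to 26.8% and Sox7 12.6% to 18.2%. The gap between Sox18 and Sox17 depended on the length used, and their ranges overlapped per kilobase of coding sequence, a scale tried after seeing the data. There Sox18 made up 36.0% to 46.8%, Sox17 35.4% to 41.9% and Sox7 17.8% to 24.0%, with Sox7 still at 95.9% to 98.2% at E13.5 and 78.1% to 87.4% after MS-275. By exon length, in the E13.5 libraries Sox7 made up 92.5% to 97.0%, and Sox17 only 0.307% to 0.433%. After MS-275 Sox7 was again the main SoxF transcript, at 77.1% to 83.0%. The Wnt3a libraries fell on both sides: Sox7 made up 75.2% in library 1 and 12.8% in library 2, the latter close to adult control 3 with 12.6%.

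**Figure D2:**
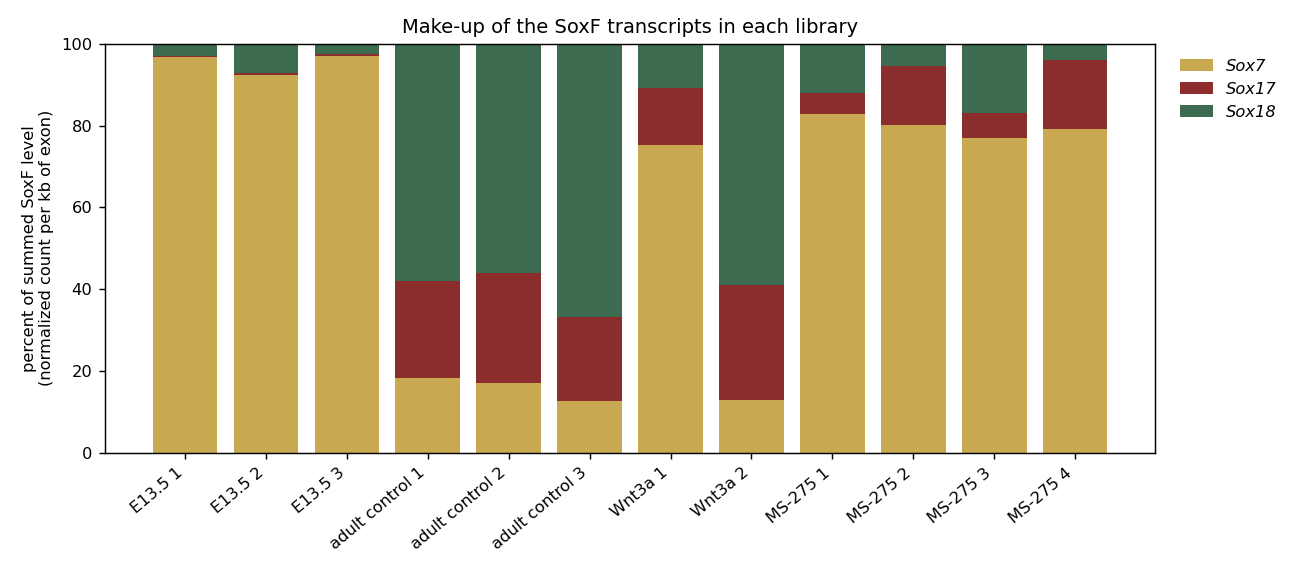
Percent of the summed SoxF level (normalized counts per kilobase of exon) taken by Sox7, Sox17 and Sox18 in each of the 12 libraries. Sox7 takes 92.5% to 97.0% in E13.5, 12.6% to 18.2% in adult controls and 77.1% to 83.0% after MS-275.

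Among the neural and glial genes, Sox2, the progenitor factor, was seen in the E13.5 libraries alone. Sox2 (chromosome 3, 34650405 to 34652461, plus strand) had 4052, 4878 and 4683 normalized counts there, and not 1 read was counted in the 9 adult libraries. A count of 0 over the 3 adult controls allows a mean of up to 0.952 normalized counts (3 reads over the group, counting error only), and 0 over the 4 MS-275 libraries allows 0.729. Sox11 (chromosome 12, 27334264 to 27342574, minus strand), the SoxC factor of newborn neurons, had the same on-off pattern. It had 3669, 5840 and 5820 normalized counts in the E13.5 libraries and no read in the adult ones, and E13.5 library 1, the one apart from the other two, was the lowest.

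Sox4 (chromosome 13, 28948919 to 28953713, minus strand), the SoxC relative of Sox11, which is also used in many other tissues, was high in all 12 libraries. Its values were 8315, 11135 and 10748 in the E13.5 libraries and 7609, 7200 and 6121 in the adult controls. They were 11658 and 6097 after Wnt3a and 2756, 3883, 2805 and 4361 after MS-275. The MS-275 libraries were the lowest group and overlapped no other, while the Wnt3a range spanned both the adult control and the E13.5 ranges. The non-coding gene Gm26735 overlaps Sox4 exons on the other strand.

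The starts of Sox2, Sox11 and Sox4 are shown because they carry this contrast: the first and second genes had no read in adult cells, and Sox4, of the same SoxC group as Sox11, stayed on. Each is the RefSeq promoter window on GRCm38.p6, 250 bases before to 50 after the start that RefSeq annotates, written 5′ to 3′ on the strand of the gene, at chr3:34649745-34650044, chr12:27342669-27342968 and chr13:28953650-28953949. The windows of Sox2 and Sox11 lie wholly upstream of the GENCODE starts given above, so RefSeq places these starts farther upstream, and the Sox4 window spans the GENCODE start. Capitals mark CCAAT or, on the other strand, ATTGG, the CCAAT box.
Sox2: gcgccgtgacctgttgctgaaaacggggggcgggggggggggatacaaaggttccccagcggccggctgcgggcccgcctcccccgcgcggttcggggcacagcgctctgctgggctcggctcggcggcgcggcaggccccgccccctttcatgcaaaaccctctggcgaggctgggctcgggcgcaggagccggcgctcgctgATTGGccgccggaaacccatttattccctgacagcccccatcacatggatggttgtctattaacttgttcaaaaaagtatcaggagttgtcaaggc
Sox11: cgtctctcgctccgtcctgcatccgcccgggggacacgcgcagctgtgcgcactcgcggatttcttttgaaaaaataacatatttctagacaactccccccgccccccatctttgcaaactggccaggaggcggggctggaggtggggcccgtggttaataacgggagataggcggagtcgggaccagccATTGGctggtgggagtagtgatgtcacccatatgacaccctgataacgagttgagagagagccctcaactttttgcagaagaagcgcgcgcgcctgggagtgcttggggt
Sox4: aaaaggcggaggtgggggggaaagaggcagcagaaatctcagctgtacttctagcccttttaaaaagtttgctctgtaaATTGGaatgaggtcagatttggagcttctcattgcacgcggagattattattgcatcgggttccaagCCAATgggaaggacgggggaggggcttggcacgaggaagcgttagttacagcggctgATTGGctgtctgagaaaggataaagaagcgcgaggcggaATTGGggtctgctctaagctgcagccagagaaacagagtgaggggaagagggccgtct
Sox2 and Sox11 held 1 CCAAT box each and Sox4 held 4, where 37.4% of 32851 promoter windows held at least 1 on either strand. The windows of Sox2 and Sox11 had 66.3% and 58.7% GC with 27 and 21 CpG, against 52.0% and 12 for Sox4 and medians of 52.7% and 7 over all windows. The letters ACAAAG, a core that SOX proteins bind (CTTTGT on the other strand), were found once in the Sox2 window and in neither of the others, and 18.7% of all windows held them. The table held windows for 5 of the 10 genes, Sox5 and Sox6 besides these, and those of Sox7, Sox9, Sox10, Sox17 and Sox18 are not shown here.

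The SoxD genes differed in their adult level. Sox5 (chromosome 6, 143828425 to 144781977, minus strand) had 563, 688 and 674 normalized counts in the E13.5 libraries and none in the adult controls. It had 2.78 and 0 after Wnt3a and 3.41, 0, 1.62 and 0 after MS-275, which are 2 and 6 reads. Sox6 (chromosome 7, 115470872 to 116038796, minus strand) had 1784, 2015 and 2037 in the E13.5 libraries but kept a low level in adult cells. That level was 75.5, 86.4 and 94.7 in the adult controls, 87.5 and 70.4 after Wnt3a and 81.9, 62.3, 58.4 and 65.7 after MS-275, with all 3 adult ranges overlapping. Sox5os1, an antisense transcript, overlaps Sox5 exons.

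The SoxE genes were unlike each other. Sox9 (chromosome 11, 112782224 to 112787760, plus strand), which acts in radial glia, astrocytes and cartilage, had 2432, 2968 and 2820 normalized counts in the E13.5 libraries. It had 1.73, 12.2 and 0 in the adult controls, 38.9 and 0 after Wnt3a and 120, 13.1, 122 and 7.58 after MS-275. The adult values followed the library sets: in set A Sox9 was at 120 and 122 after MS-275, in set B at 13.1 and 7.58. Sox10 (chromosome 15, 79154908 to 79165240, minus strand), the factor of oligodendrocytes and neural crest, was near 0 in every group, with a highest value of 4.77 in an E13.5 library, and too low to be tested.

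Per kilobase of exon, Sox4 (1455 ± 160, SD, n = 3) and Sox18 (1354 ± 199) led in adult controls with overlapping ranges. Sox17 (531 ± 47.4) and Sox7 (354 ± 50.1) came next, and their ranges did not meet. Sox6 followed at 5.77 ± 0.649, far below. In the E13.5 libraries Sox2 (2206 ± 210) and Sox4 (2099 ± 319) led with overlapping ranges, before Sox9 (663 ± 66.9) and Sox11 (615 ± 150), which also overlapped. Sox7 was the highest SoxF gene there, at 98.5 ± 10.1. After MS-275 the order was Sox4 (720 ± 167, n = 4), Sox7 (140 ± 26.8), Sox18 (17.5 ± 12.1), Sox17 (17.3 ± 7.80) and Sox9 (15.9 ± 15.5), of which the last 3 overlapped.

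Summed per kilobase, the SoxF genes made up 57.7% to 64.9% of the level of all 10 genes in adult controls and 1.50% to 1.99% in the E13.5 libraries. Nearly all of the neural share in adult controls was Sox4: without it the SoxF share was 99.6% to 99.7%, and 2.35% to 3.06% in the E13.5 libraries. After MS-275 the SoxF share was 14.7% to 26.0% with Sox4, and 84.2% to 95.7% without it. In Wnt3a library 1 it was 23.4% with Sox4 and in library 2 it was 62.4%.

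The comparison of adult control with E13.5 ECs asks which genes differ between the stage when the blood-brain barrier forms and the adult. The 3 SoxF genes were higher in adult controls, and 5 neural or glial genes were lower. Of 9 genes tested, 3 were therefore higher where 19.5% of all 15452 genes tested were, and 5 lower where 32.8% were (limma on log2 of the normalized count plus 1, adjusted p under 0.05 over all genes). Of all calls 37.3% were higher, and 55.7% with quantile normalization. Sox17 was higher by a log2 fold change of 9.85 (SE 0.56, limma adjusted p = 9.82e-08), a ratio of means of 1452 that rests on 6 E13.5 reads. Sox18 was higher by 8.19 (SE 0.91, adjusted p = 1.87e-05), a ratio of 293. Sox7 was higher by 1.84 (SE 0.26, adjusted p = 0.000122), a ratio of 3.60. Sox17 and Sox18 passed the filter only through adult libraries, so they could only be called higher. The part of Sox17 and Sox18 in the count of higher genes was thus fixed by the filter. The fold changes are differences of mean log2 values with 1 added, so for genes near 0 they can differ from the ratio of means in either direction.

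Those lower in adult controls were Sox2, Sox11, Sox5, Sox9 and Sox6. Sox2 was at least 4766-fold lower and Sox11 at least 5366-fold lower in adult controls, taking 3 reads over the group as the floor (limma adjusted p = 2.26e-09 for both). Sox5 was at least 674-fold lower (adjusted p = 4.77e-07). Sox2, Sox11 and Sox5 passed the filter only through the E13.5 libraries, so they could only be called lower. Their part in the count of lower genes was thus fixed by the filter. For Sox2 and Sox11 no adult library had a read, so the spread within groups came from the E13.5 libraries alone. Sox9 was 590-fold lower (log2 fold change -9.69, SE 1.45, adjusted p = 0.000182) and Sox6 was 22.8-fold lower (log2 fold change -4.50, SE 0.21, adjusted p = 3.13e-08). Sox4 did not pass (-0.52, SE 0.26, adjusted p = 0.111), but did with libraries scaled to the same total (adjusted p = 0.0441), with quantile normalization (0.0129) and with only these 2 groups in the fit (0.0346). The endothelial, neural progenitor and mural marker sums given above moved with these differences, and their part in them was not tested. In bulk samples fewer cells of a type and less RNA per cell cannot be told apart.

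**Figure D3:**
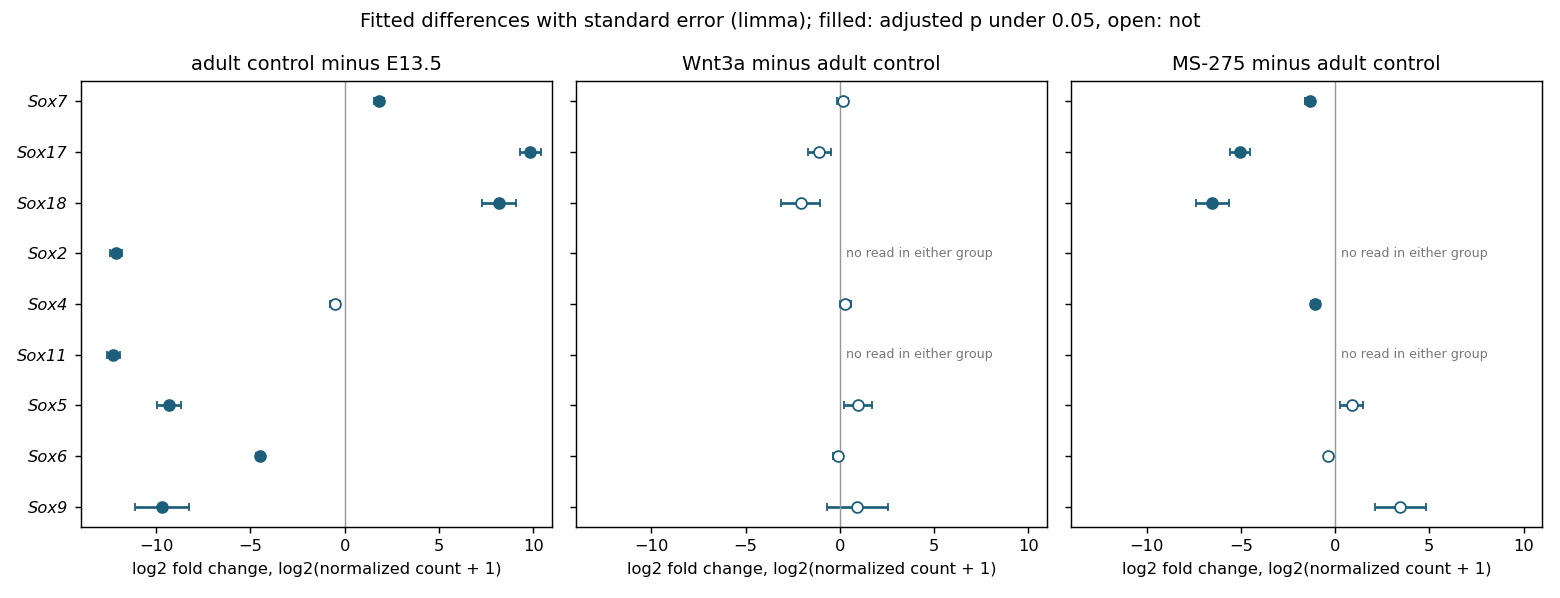
Log2 fold changes of the 9 tested SOX genes with standard errors (limma, log2 of normalized count plus 1) for adult control against E13.5 (left), and for Wnt3a (middle) and MS-275 (right) against adult control. Filled points have an adjusted p under 0.05: 8 genes at left, 0 in the middle and 4 at right.

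The Wnt3a comparison asks what renewed Wnt signaling does in adult ECs. No SOX gene passed the test, and neither did any of the 15452 genes (0% called) with limma or edgeR, with 41 genes called by DESeq2. At an unadjusted p under 0.05, 1311 genes and 0 of the 9 SOX genes were found. Sox2 and Sox11 had no read in either group, so they could not be found. Sox17 had a log2 fold change of -1.08 (SE 0.62, limma adjusted p = 0.633) and Sox18 of -2.08 (SE 1.02, adjusted p = 0.603). Both values came from Wnt3a library 1, since without it they were 0.17 and -0.10. Within set A, Wnt3a 1 lay 2.39 (Sox17) and 3.93 (Sox18) log2 units under the mean of controls 1 and 2, and within set B Wnt3a 2 lay 0.28 above and 0.34 under control 3, with 1 Wnt3a library a set. With the set as a block in the adult libraries neither was called (Sox17 -1.26, adjusted p = 0.352, and Sox18 -2.10, adjusted p = 0.395). Sox7 (0.15, SE 0.29) and Sox4 (0.28, SE 0.29) were not called either (adjusted p = 0.909 and 0.791), and both were above every adult control in Wnt3a 1 and below every one in Wnt3a 2. The neural progenitor markers summed to 12871 in Wnt3a 1 and 2636 in Wnt3a 2, and the endothelial markers to 187542 and 235662. Most of the progenitor sums was Nes alone, with 12252 and 2331, while Fabp7, Hes5, Slc1a3 and Emx2 had no read after Wnt3a. The part of these markers in the SoxF values was not tested.

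The MS-275 comparison asks what inhibition of class I histone deacetylases does in adult ECs. All 3 SoxF genes fell, and so did Sox4, the SoxC gene that adult cells express. These 4 of 9 tested genes compare with 22.7% of all genes lower, and 0 of 9 with 30.3% higher. The 9 include Sox2 and Sox11, which had no read in either group and could not be called in this fit. Sox18 fell by 6.50 on the log2 scale (SE 0.86, limma adjusted p = 0.000101), a 77.2-fold lower mean. Sox17 fell by 5.03 (SE 0.52, adjusted p = 2.08e-05), a 30.7-fold lower mean. Sox7 fell by 1.35 (SE 0.24, adjusted p = 0.000854) and Sox4 fell by 1.04 (SE 0.24, adjusted p = 0.00388), 2.54-fold and 2.02-fold lower means. For these 4 genes every MS-275 library lay below every adult control, as 23.4% of all genes did. Within both library sets the falls were also seen, as -5.64 (set A) and -4.37 (set B) for Sox17, -1.29 and -1.30 for Sox7, and -1.41 and -0.57 for Sox4. For Sox18 the MS-275 mean was 45.2 against 2008 in set A and 11.6 against 2563 in set B.

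The endothelial markers moved with the SoxF genes. All 10 of 10 were lower after MS-275, with log2 fold changes from -6.58 (Emcn) to -1.26 (Kdr) and a median of -4.01, against 0.19 over all genes tested. Sox18 and Sox17 thus lay at the lower end of this range and Sox7 at its upper end. The marker sum was 18570 to 33595 after MS-275 against 239254 to 321625 in adult controls, and its part in the SoxF falls was not tested.

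**Figure D4:**
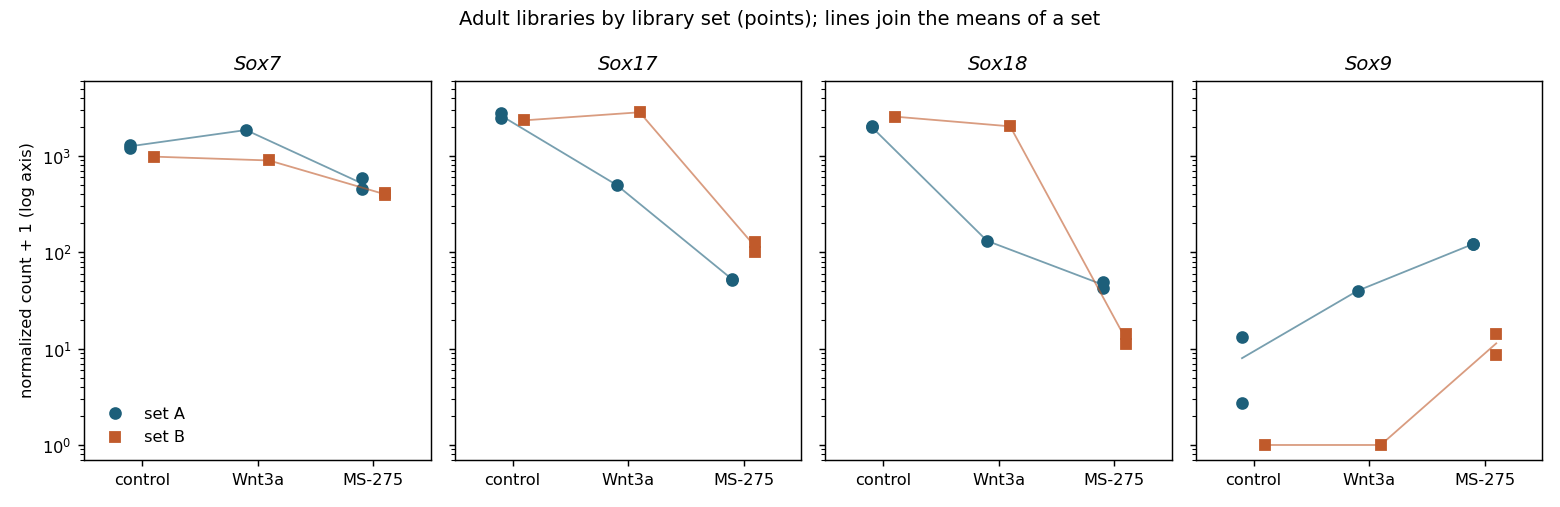
Normalized counts plus 1 (log axis) of Sox7, Sox17, Sox18 and Sox9 in the 9 adult libraries, split into the library sets A and B found in the data, with lines joining the means of a set. Sox17 and Sox18 are low in Wnt3a library 1 (500 and 131) but not in library 2 (2841 and 2031), and Sox9 after MS-275 is at 120 and 122 in set A and at 13.1 and 7.58 in set B.

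Sox9 was the neural or glial gene nearest to a rise after MS-275. Its log2 fold change was 3.47 (SE 1.36), with a limma adjusted p of 0.0502, so it was not called. It was called by edgeR (adjusted p = 0.0320) and DESeq2 (0.0239), and with the library set as a block in the adult libraries (log2 fold change 4.07, adjusted p = 0.00101). The sets were drawn from the deviations of these same libraries, so that block takes out spread by construction. Its p is therefore no separate evidence for a rise. Over 22 alternatives the adjusted p of Sox9 ran from 0.00101, with that block, to 0.359, and 10 of them called it, that block included. Leaving out control 2, the highest adult control, gave 0.0305. Within set A the mean was 121 after MS-275 and 6.97 in controls, and within set B 10.3 and 0. Sox5 (0.88, adjusted p = 0.245) and Sox6 (-0.35, adjusted p = 0.163) did not pass, and Sox2 and Sox11 had no read in either group.

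The same MS-275 libraries were also set against the Wnt3a libraries, so both comparisons share them. After MS-275 4 of 9 were lower than after Wnt3a (18.7% of all genes) and 0 higher (23.6%). Here too the 9 include Sox2 and Sox11, which had no read in either group and could not be called. The log2 fold changes were -1.50 for Sox7, -3.95 for Sox17, -4.43 for Sox18 and -1.32 for Sox4, with limma adjusted p of 0.00141, 0.000387, 0.00390 and 0.00281. All 4 sizes depended on which Wnt3a library was kept. With Wnt3a 1 alone they were -2.03 for Sox7, -2.70 for Sox17, -2.45 for Sox18 and -1.78 for Sox4, and with Wnt3a 2 alone -0.98, -5.20, -6.40 and -0.85. The Sox18 call rested on Wnt3a library 2, since without it the adjusted p was 0.0556.

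Against the E13.5 libraries, MS-275 ECs had a higher level of 1 gene (27.2% of all genes higher) and a lower level of 6 (36.1% lower). Of all calls 43.0% were higher, and 56.5% with quantile normalization. Sox17 was the higher one, 47.3-fold (log2 fold change 4.82, SE 0.52, limma adjusted p = 1.35e-05), so it lay between the E13.5 and adult control levels. Sox17 passed the filter only through adult libraries, so it could only be called higher and the count of higher genes was fixed by the filter. Sox18 (1.69, SE 0.86, adjusted p = 0.106) and Sox7 (0.49, SE 0.24, adjusted p = 0.103) did not pass. Sox18 did with DESeq2 (0.0302), and in limma with quantile normalization (0.00347) and with MS-275 replicates 1 and 3 alone (0.0479). Sox7 passed in limma with quantile normalization (0.00212) and with only the 2 groups compared (0.0421). The lower genes were Sox2, Sox11, Sox5, Sox6, Sox9 and Sox4, the last 2.92-fold (adjusted p = 0.000185). Sox2, Sox11 and Sox5 passed the filter through the E13.5 libraries alone, so here too they could only be called lower. Sox9 was still 41.7-fold below the E13.5 mean (adjusted p = 0.00204).

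The other SOX genes of the table fell along the same lines. Sox13, a SoxD gene, was the only one of the 9 with an adult pattern: it had 3174, 3456 and 2611 normalized counts in adult controls, 202, 271 and 275 in the E13.5 libraries, 1623 and 2448 after Wnt3a and 571, 248, 414 and 301 after MS-275. It was 12.4-fold higher in adult controls than at E13.5 (limma adjusted p = 1.57e-06) and 8.04-fold lower after MS-275 than in controls (adjusted p = 9.27e-06). Sox1 and Sox3, the SoxB1 relatives of Sox2, and Sox21 of SoxB2 had means of 747, 483 and 691 in the E13.5 libraries and no read in any adult library. Sox8, the SoxE relative of Sox9 and Sox10, had a mean of 1641 at E13.5 and 0, 0 and 1.97 in adult controls. It was at 17.1, 39.3, 16.2 and 22.7 after MS-275 (log2 fold change against controls 4.02, SE 0.47, adjusted p = 4.52e-05) and had no read after Wnt3a. Sox12, the SoxC relative of Sox4 and Sox11, had no read in adult controls and 5.12, 10.9, 22.7 and 2.53 after MS-275 (at least 10.8-fold higher, adjusted p = 0.000741), against a mean of 925 at E13.5. Sox14 had no read, and Sox15 and Sox30 were too low to be tested.

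Known targets and partners were read from lists set with earlier results known. Of 10 SoxF targets and partners in ECs, 5 were higher and 3 lower in adult controls than at E13.5 (median log2 fold change 1.46, against -0.20 over all genes), where 19.5% of all genes were higher and 32.8% lower. Cdh5, the adherens junction gene VE-cadherin, Cldn5, a tight junction claudin, and Kdr, the VEGF receptor, were among the higher ones, with log2 fold changes of 10.15, 13.65 and 4.71 (adjusted p = 1.36e-08, 4.40e-08 and 1.29e-06), and these 3 are also in the endothelial list. The 3 lower ones, named here after their values were seen, were Prox1, the lymphatic regulator that Sox18 induces (0.657 normalized counts in adult controls against 716 at E13.5), Vcam1, an adhesion molecule (666 against 4459), and Rbpj, the DNA-binding effector of Notch (2509 against 7430). With edgeR's quasi-likelihood test Vcam1 was not called (adjusted p = 0.104). Cldn5 passed the filter only through adult libraries, so it could only be called higher. Prox1 passed only through the E13.5 libraries, so it could only be called lower. Both counts are therefore partly fixed by the filter. After MS-275, 6 of the 10 were lower and 0 higher (median -1.07, against 0.19), beside 22.7% lower and 30.3% higher over all genes. Dll4, the arterial Notch ligand, fell by 5.10 (adjusted p = 1.36e-05), from 2543 ± 709 (SD, n = 3) to 74.0 ± 23.9 normalized counts (n = 4). Its receptor Notch1 fell by 1.89 (adjusted p = 1.37e-05), from 6140 ± 359 to 1673 ± 311. Cdh5 fell by 4.14 (adjusted p = 1.34e-05), from 82471 ± 7459 to 5389 ± 3737.

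Of 11 targets and partners of the neural SOX factors, 11 were lower in adult controls than at E13.5 (median -7.77), as 32.8% of all genes were. Pou3f2, Pou3f3, Pax6, Dcx and Olig2 passed the filter only through the E13.5 libraries, so they could only be called lower. The count is therefore partly fixed by the filter and cannot be weighed against that share. Pou3f2, a partner of Sox2 and Sox11 in neural cells, and Olig2, the oligodendrocyte lineage factor, had no read in adult controls and means of 448 ± 128 and 1805 ± 67.0 at E13.5. Pou3f3, a relative of Pou3f2, had means of 0.329 and 6220. After MS-275, 3 of the 11 were higher and 1 lower (median 0.28), so the share higher was near the 30.3% of all genes and these members are described singly. Tubb3, a neuronal tubulin and target of Sox4 and Sox11, rose from 1.26 ± 1.10 to 426 ± 113 normalized counts (log2 fold change 7.68, adjusted p = 9.86e-05) in the libraries where Sox11 had no read and Sox4 was lower. Erbb3, a neuregulin receptor that Sox10 activates in neural crest and glia, rose from 5.91 ± 2.86 to 400 ± 241 (5.72, adjusted p = 8.14e-05), where Sox10 reached at most 2.56. The part of Sox4, Sox10 and Sox11 in the levels of Tubb3 and Erbb3 was not tested. Nfia, a partner of Sox9 in gliogenesis, fell from 939 ± 104 to 282 ± 30.9 (-1.73, adjusted p = 8.63e-05). The neuron markers, Tubb3 among them, summed to 654 to 727 after MS-275 and 3.47 to 4.07 in controls, with Dcx and Neurod1 at no read in both.

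The cartilage genes that Sox9, Sox5 and Sox6 activate in chondrocytes were read as a further list. Of 5 genes 3 were tested, and all 3 were higher after MS-275 (median 3.20, against 0.19 over all genes, of which 30.3% were higher). Those not tested were Col9a1, with no read in controls and 4 reads after MS-275, and Matn1, with no read in either group. Acan passed the filter only with the help of MS-275 libraries, so the count is partly fixed by the filter. Col11a2, a fibrillar collagen, rose from 35.6 ± 1.74 to 231 ± 20.0 normalized counts (2.66, adjusted p = 6.02e-05). Acan, the proteoglycan aggrecan, and Col2a1, the main cartilage collagen, had no read in controls and means of 10.0 ± 5.47 and 10.6 ± 8.06 after MS-275 (adjusted p = 0.000544 and 0.00394). At E13.5 Col2a1 stood at 768 ± 53.8. The fibroblast and meningeal markers summed to 418 to 510 after MS-275 and 154 to 250 in controls, with Lum at no read in both, and their part was not tested.

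Over the 12 libraries, which share their group and set, the genes whose log2 levels were most like Sox17 among 12692 with a group mean of at least 100 were Rapgef5, a Rap guanine exchange factor (Pearson r = 0.995), Hhex, a homeobox factor of early endothelium (0.991), and Plxnd1, a semaphorin receptor (0.989). Those most like Sox18 were Dipk2b (0.984), She (0.973) and Sox13 (0.971). Slc9a3r2 (0.981) and Ino80c (0.974) were among those most like Sox7. Tafa5, Adamts3 and Sox3 were nearest to Sox2, with no read in any adult library, so that their likeness is the on-off pattern itself.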

How the data were processed

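Poly(A) mRNA-seq was measured in 12 libraries of cultured cortical ECs, grouped by the submitters' labels. Upstream, the authors ran FastQC and cutadapt, aligned to mm10 with STAR, and counted reads of protein-coding genes (in-house scripts per the methods, featureCounts per the submitters' processing notes); the sources used here give no versions. The deposited signal values are normalized counts, which the authors made by dividing each library's counts by a DESeq2 size factor. Multiplied back, 100.0% of values lay within 0.01 reads of a whole number. Of 21638 rows, 26 whose names had become dates (0.210% to 0.281% of a library's normalized counts) and 1 with a missing value were left out.

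Values were transformed as log2(normalized count + 1) and fitted with limma 3.58.1 (R 4.3.3; trend, robust) over all 12 libraries and 5 comparisons that share groups. Genes with at least 10 normalized counts in at least 2 libraries were tested (15452, 9 of the 10 SOX genes, not Sox10), with Benjamini-Hochberg adjustment over all of them and a threshold of 0.05. Recovered reads were tested with edgeR 4.0.16 and DESeq2 1.42.0 as alternatives. The scripts were tested on simulated data. The other alternatives were the pseudocount, the filter, the scaling, a replicate block, a library set block, only the groups compared and leaving out libraries. The library sets came from the same values, so calls made with the set block are no separate evidence. The adult libraries fitted alone without a block, and shares by coding length, were added after seeing the data. Same-numbered libraries did not deviate together in every pair (correlations from -0.442 to 0.441). Both pairs of MS-275 and Wnt3a did (0.363 and 0.365), but 2 pairs with no label behind them were not taken as a pairing.

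Positions and exon lengths are from GENCODE M21 on mm10, and promoter windows from RefSeq on GRCm38.p6. Windows of 75 bases from the transcripts of the 10 genes were found in no other of the 21611 genes analysed. Transcripts of genes outside these were not searched. The members and gene lists were chosen with earlier results of these data known. All 19 SOX genes were named, the 3 genes with the smallest adjusted p of a target list in a comparison, and the 3 nearest genes by correlation, 1 of which is not reported here. Replicates are pools of litters according to the methods, which state 2 replicates for MS-275 where 4 libraries are labelled, so p-values measure the spread between libraries, which may be partly technical. Floors for a count of 0 are 3 reads over a group and cover counting error only.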

Additional observations from a re-analysis of the deposited data

Results flagged for a closer look

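Among the SOX genes, looked at in the MS-275 group alone, 1 value stood apart. Sox30 had 1.71 normalized counts in 1 library and 0 in the other 3, so the gap took the whole range (ratio 1.0). This is 2 reads. Any gene read in only 1 library of the group gives that ratio, so it carries no further weight.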

How the results depend on the processing

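Of the single SOX genes, 713 values under an alternative kept their direction and side of the threshold, 23 passed it where they had not before, 1 no longer did and 14 changed sign. For MS-275 against adult control the count of SOX genes higher was 0. It was 1 (Sox9) with libraries scaled to equal totals, with a replicate block, with edgeR, with only the 2 groups compared and with the library set as a block, 2 (Sox9 and Sox5) with DESeq2 and with MS-275 replicates 1 and 3 alone, and 0 to 1 leaving out single libraries. The count lower was 4, and 7 with quantile normalization, which added Sox6 and also Sox2 and Sox11, genes with no read in either group. For MS-275 against Wnt3a the count higher was 0, and 1 (Sox9) with the library set as a block, and 0 to 1 leaving out single libraries. For MS-275 against E13.5 it was 1, then 3 with quantile normalization and 2 with DESeq2, with only the 2 groups compared and with MS-275 replicates 1 and 3 alone. Ordered by coding length instead of exon length, 6 of 10 genes kept their place at E13.5 and 6 after MS-275. Apart from the changed scale or samples themselves, the cause was not tested.

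For Wnt3a against adult control, leaving out single libraries gave log2 fold changes of -0.37 to 0.68 for Sox7, -2.33 to 0.17 for Sox17, -0.19 to 0.75 for Sox4, -0.27 to 0.039 for Sox6 and -1.72 to 3.59 for Sox9, with no call. For MS-275 against Wnt3a they ran from -1.03 to 0.88 for Sox5 (without MS-275 2 or 4, 0.22) and from -0.12 to 5.19 for Sox9. Sox5 there was 0.17 with the replicate block, 0.080 with edgeR, 0.16 with DESeq2 and 0.81 with MS-275 replicates 1 and 3 alone, and against adult control it was -0.30 with quantile normalization. These Sox5 values rest on 6 MS-275 and 2 Wnt3a reads. The replicate block changed no SOX call other than that of Sox9.

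Over all genes, quantile normalization moved the median of adult control against E13.5 from -0.20 to 0.13 and the genes higher from 3008 to 4800, and 1858 were higher by more than 1 log2 unit. For Wnt3a against adult control, where 0 genes were called, DESeq2 called 29 higher and 12 lower, leaving out adult control 3 gave 953 and 501, and leaving out Wnt3a 2 gave 122 and 115, none a SOX gene among the 10.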
